A study of Mus musculus with 6 samples.

Results

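Genes of glycolysis and of the response to low oxygen were followed in bulk RNA-seq of cDC2s, the type 2 conventional dendritic cells, of the mouse spleen. The set was a list of 38 gene symbols, and a member was any of them with a row of at least 10 counts over the 6 libraries. Of the 14535 genes in the count table, 35 were members. Eno1, Pdk4 and Pkm had no row under these symbols. Eno1 and Pdk4 were not analysed here, and a row under an older symbol of Pkm is described apart from the members. The lowest member total was 42 counts (Egln3) and the next was 77 (Slc16a1). A filter on low counts left 34 members for testing, all but Egln3.

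The control group was WT (3 libraries). The other group came from CD11c-Cre Irf4fl/fl mice (3 libraries, labelled IRF4-deficient and called KO here), which carry a loxP-flanked Irf4 gene and a Cre recombinase driven by the promoter of CD11c (Itgax). All animals had the C57BL/6 background, and the sources used here give neither their ages nor the sort gate. CD11c is also made by other dendritic cells and by some macrophages, so the deletion may not be limited to cDC2s. No group carried Cre alone, so effects of the transgene and of Irf4 loss cannot be told apart. The labels do not say whether the replicates were separate mice, so p-values measure the spread between libraries, which may be technical. In bulk RNA, fewer cells of a type and less RNA per cell cannot be told apart.

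Glycolysis turns glucose into pyruvate in the cytosol. Glucose enters through facilitative transporters, hexokinases trap it as a phosphate, phosphofructokinase commits it to breakdown, and the lower steps make pyruvate, which lactate dehydrogenase reduces to lactate or mitochondria oxidise. When oxygen is low, prolyl hydroxylases stop marking the transcription factor subunit HIF1A for degradation, and HIF1A raises many glycolysis genes. Dendritic cells are known to raise glycolysis on activation.

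Library totals ran from 7421605 to 11459920 counts. Values below are CPM, counts scaled to library size with TMM factors, given as mean ± SD with n = 3 per group. Irf4 stood at 80.0 ± 13.2 CPM in KO and 311 ± 29.6 CPM in WT libraries, and the groups did not overlap. Whole-gene counts include any exons outside the floxed ones, and the sources used here do not name those. The 12 cDC2 markers summed to 18970 to 19190 CPM in KO and 20430 to 22330 CPM in WT libraries (2 called higher, 7 lower). Those called lower include Irf4 itself, the targeted gene. Most of the sum was H2-Aa and H2-Ab1, with means of 8573 and 5184 CPM in KO and 10580 and 6157 CPM in WT cells. Log2 fold changes of the 12 ran from -2.08 (Cd4) to 1.60 (Itgam). The summed level of 13 red pulp macrophage markers was 2210 to 3889 CPM in KO and 1426 to 1852 CPM in WT libraries. Of them 7 were called higher and 1 lower, and none was at 0. The lower one was Emr1, at 196 ± 13.5 CPM in KO and 298 ± 27.2 CPM in WT cells. Hmox1, Spic, C1qc, Cd163 and Axl were not called. The highest of these markers was Vcam1, and Hmox1 is also on the list of further hypoxia targets used below. The summed level of 9 monocyte markers was 2208 to 2870 CPM in KO against 849 to 1224 CPM in WT libraries (5 higher, 0 lower). That of 8 cDC1 markers was 307 to 417 against 241 to 251 CPM (5 higher, 1 lower). The 9 neutrophil markers with a row summed to 73.8 to 92.5 against 23.4 to 45.5 CPM, of which 3 were tested and 2 called higher (Csf3r and Mmp9). Most of that sum was Csf3r and Mmp9. Of the untested ones, S100a8 (3 KO and 49 WT counts), S100a9 (17 and 56), Ngp (19 and 59) and Camp (0 and 8) had fewer counts in KO. Ltf (19 and 3) and Mmp8 (10 and 6) had more. The part of monocyte, cDC1 and neutrophil signal in the member results was not tested, and for red pulp signal a fit with the red pulp marker sum as a covariate is given beside the members.

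Glycolysis and hypoxia genes did not move as one group. A gene was called at an edgeR quasi-likelihood adjusted p under 0.05, with the adjustment over all 11934 tested genes. Of the 34 tested members, 6 were called higher and 5 lower in KO cells. These 11 are 32.4% of the members, beside 20.4% called among all tested genes (9.87% higher and 10.5% lower). The median log2 fold change of the members was 0.03, beside 0.0025 over all tested genes, and it was 0.26 without WT replicate 1. The KO and WT libraries did not overlap for 16 members (9 higher, 7 lower, 47.1%), beside 35.6% of all tested genes (17.5% higher, 18.1% lower). Eno2, Slc2a3 and Pfkfb3 fell and Ldhb rose by more than 2-fold, and calls of that size were made for 7.38% of tested genes. Ldhb had few counts and passed the low-count filter through its KO libraries alone. Without WT replicate 2 or WT replicate 3 the counts were 3 higher and 3 lower, and without KO replicate 1 they were 4 higher and 3 lower.

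**Figure D1:**
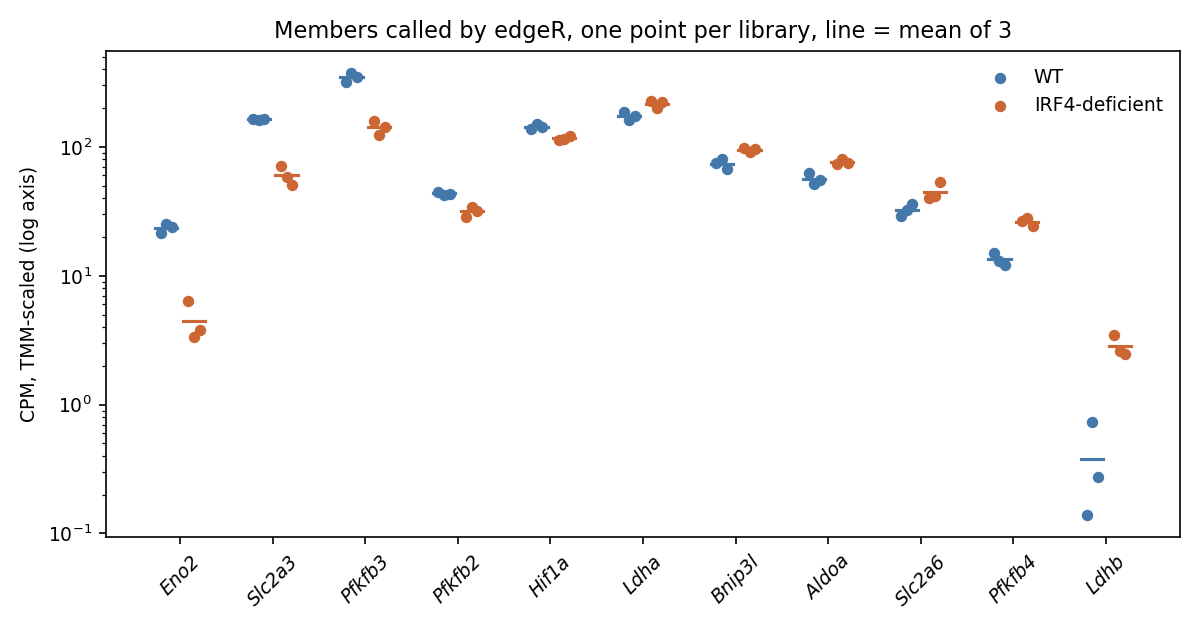
CPM (log axis) of the 11 called members in each library, WT in blue and IRF4-deficient (KO) in orange, with a line at the mean of 3. The groups are apart for each gene, widest for Eno2, Slc2a3 and Pfkfb3 on the left and Ldhb on the right.

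Slc2a3 and Slc2a6, both glucose transporter genes, moved in opposite directions. Slc2a3, which encodes the high-affinity transporter GLUT3 (GRCm38 chromosome 6, 122727809 to 122801640, minus strand), stood at 164, 163 and 166 CPM in WT replicates 1 to 3 and at 71.4, 58.1 and 51.0 CPM in KO replicates 1 to 3. The WT libraries lay within a few CPM of each other and far above every KO library. It fell 2.73-fold, with a log2 fold change of -1.45 (standard error, SE, 0.12, edgeR adjusted p = 4.425e-08). Slc2a6, which encodes GLUT6, a transporter of intracellular membranes in macrophages, rose from 32.5 ± 3.72 to 45.02 ± 7.41 CPM (log2 fold change 0.47, SE 0.16, edgeR adjusted p = 0.038). Its KO libraries stood at 40.2, 41.3 and 53.6 CPM, with the highest in replicate 3, the library with the highest red pulp marker sum. The Slc2a6 call was lost without KO replicate 3 (edgeR adjusted p = 0.156), WT replicate 1 (0.138) and WT replicate 2 (0.112), and with the red pulp covariate its log2 fold change was 0.17 (0.835). Slc2a1, the gene of the basal transporter GLUT1 (chromosome 4), had no overlap between 40.4 to 46.8 CPM in KO and 26.55 to 35.9 CPM in WT libraries. It was not called (log2 fold change 0.42, SE 0.15, edgeR adjusted p = 0.0583), although limma-voom called it (adjusted p = 0.0441).

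Levels of different genes were compared only as CPM per kb of exon. On that scale Slc2a3 made up 54.8, 56.1 and 51.5% of the summed transporter level in WT replicates 1 to 3 and 27.6, 24.5 and 19.97% in the KO replicates. Slc2a1 went from 18.9 to 23.45% in WT to 32.7 to 37.4% in KO libraries, and Slc2a6 from 21.75 to 25.45% to 35.0 to 47.3%. On this scale Slc2a3 was the leading one of these transporters in each WT library and the lowest in each KO library. Ranks and ratios between genes depend on the length used, here the union of exons. That union has 7245 bases for Slc2a3, 3506 for Slc2a1 and 3211 for Slc2a6. Their longest coding transcripts have 3959, 3260 and 2138 bases. On that length Slc2a3 still leads in each WT library but stands above Slc2a1 in each KO library. Its lowest rank in KO libraries therefore holds only for the union of exons. Per kb of that union, the ratio of Slc2a3 to Slc2a1 was 2.34, 2.97 and 2.24 in WT and 0.738, 0.677 and 0.611 in KO libraries. The summed level of the 3 genes was 42.0 ± 2.26 CPM per kb in WT and 34.6 ± 1.62 in KO cells.

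None of the 3 hexokinase genes was called by edgeR, DESeq2 or limma-voom, and 0 had an unadjusted edgeR p under 0.05. Hk2, the inducible hexokinase often raised with glycolysis, stood at 78.6 ± 4.80 CPM in WT and 66.9 ± 2.82 CPM in KO libraries, and Hk1, the housekeeping isozyme, at 38.8 ± 0.833 and 31.9 ± 0.917 CPM. Both had groups that did not overlap, with log2 fold changes of -0.23 (95% interval -0.47 to 0.01) for Hk2 and -0.285 (-0.58 to 0.01) for Hk1. Hk3, the isozyme of myeloid cells, stood at 13.5 ± 1.08 CPM in KO and 9.41 ± 3.35 CPM in WT libraries, with overlap (edgeR adjusted p = 0.203). Hk2 was the main hexokinase per kb in all 6 libraries, with 60.0 to 60.5% of the family in KO and 60.2 to 69.2% in WT libraries. Gpi1, which isomerises the first sugar phosphate, was at 114 ± 5.84 and 120.3 ± 11.7 CPM in KO and WT cells, and its log2 fold change of -0.07 had a 95% interval of -0.29 to 0.15. Part of the Gpi1 exons lies under an annotated gene on the opposite strand (Gm26762), and the strand setting of the counting is not given in the sources used here.

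The phosphofructokinase genes Pfkl, Pfkm and Pfkp, which encode the liver, muscle and platelet subunits, overlapped between groups. Of these 3, 0 were called by edgeR, DESeq2 or limma-voom, and 0 had an unadjusted edgeR p under 0.05. Pfkl and Pfkp stood at 22.5 ± 1.68 and 33.9 ± 9.18 CPM in KO and at 27.7 ± 6.36 and 27.7 ± 1.51 CPM in WT cells. Pfkm was low, at 4.27 ± 1.13 CPM in KO and 5.16 ± 2.33 CPM in WT cells. The 95% interval of its log2 fold change ran from -1.12 to 0.55, and so included a 2-fold decrease.

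The regulators of phosphofructokinase also moved in opposite directions. PFKFB enzymes make and break down a sugar bisphosphate that activates phosphofructokinase, and PFKFB3 has the highest kinase activity among them. Pfkfb3 (chromosome 2, 11471433 to 11554077, minus strand) stood at 317.8, 375.4 and 351.6 CPM in WT replicates 1 to 3 and at 159, 124 and 142 CPM in KO replicates 1 to 3. It fell 2.45-fold (log2 fold change -1.29, SE 0.10, edgeR adjusted p = 2.295e-08). Pfkfb4 (chromosome 9, 108991778 to 109032228, plus strand) went the other way, from 15.1, 13.1 and 12.2 CPM in WT to 26.5, 28.1 and 24.5 CPM in KO libraries. The Pfkfb4 libraries of the 2 groups did not overlap, and it rose 1.96-fold (log2 fold change 0.97, SE 0.19, edgeR adjusted p = 0.000791). With the red pulp covariate it was not called (log2 fold change 1.03, edgeR adjusted p = 0.0879). Pfkfb2, the form known from heart, fell from 43.6 ± 1.27 to 31.55 ± 2.98 CPM (log2 fold change -0.47, SE 0.14, edgeR adjusted p = 0.02425). That call was lost without KO replicate 1 (0.0961) and without WT replicates 1, 2 and 3 (0.0753, 0.0655 and 0.0633), and with the red pulp covariate (0.232, log2 fold change -0.62). Of its exon bases, 19.5% overlap other annotated genes (Yod1 and Gm29427). Pfkfb1, the liver form, was at 3.05 ± 1.03 CPM in KO and 3.39 ± 0.557 CPM in WT libraries and was not called.

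Per kb of exon the make-up of the PFKFB family differed between the groups in every library. Pfkfb3 held 80.8, 83.9 and 83.4% of the family sum in WT replicates 1 to 3 and 67.0, 59.8 and 65.1% in the KO replicates. Pfkfb4 held 4.47 to 5.94% in WT and 17.3 to 20.9% in KO libraries. Pfkfb3 thus remained the leading form in all 6 libraries, while its ratio to Pfkfb4 went from 13.6, 18.5 and 18.6 in WT to 3.88, 2.85 and 3.75. The family sum was 55.7 ± 3.57 CPM per kb in WT and 29.3 ± 2.02 in KO cells. Shares and ratios are descriptions and were not tested.

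**Figure D2:**
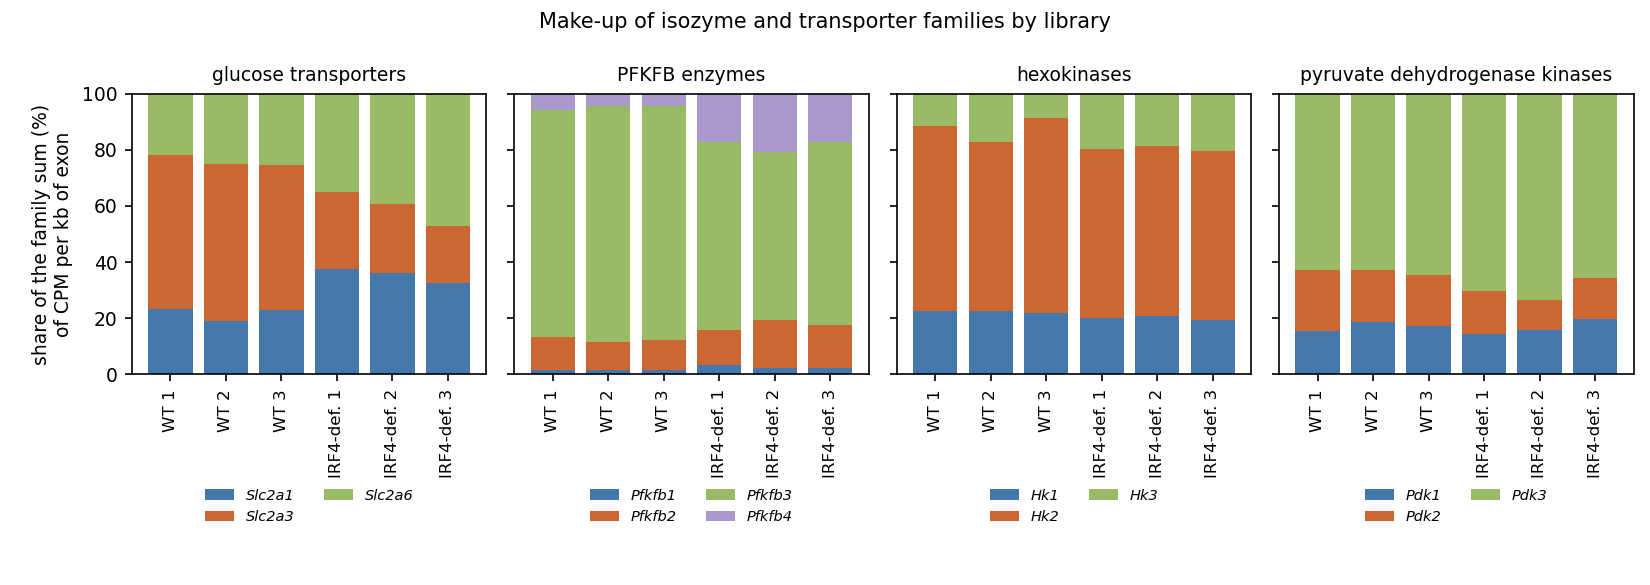
Share (%) of each gene in the summed CPM per kb of exon of its family, one stacked bar per library, for glucose transporters, PFKFB enzymes, hexokinases and pyruvate dehydrogenase kinases. The Slc2a3 band is narrower and the Pfkfb4 band wider in each IRF4-deficient (KO) library, while Hk2 and Pdk3 lead their families in all 6.

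The promoters of these opposite paralogs were searched for the core letters bound by HIF1A, ACGTG and GCGTG, on both strands. ACGTG read on both strands of the palindrome CACGTG, the E-box of MYC and related factors, counts as 2 matches. Sequences are the 250 bases before each RefSeq start (GRCm38.p6), 5′ to 3′ on the gene's strand (plus for Pfkfb4, minus for Pfkfb3), with matches in capitals.
Pfkfb4, chr9:108991652-108991901: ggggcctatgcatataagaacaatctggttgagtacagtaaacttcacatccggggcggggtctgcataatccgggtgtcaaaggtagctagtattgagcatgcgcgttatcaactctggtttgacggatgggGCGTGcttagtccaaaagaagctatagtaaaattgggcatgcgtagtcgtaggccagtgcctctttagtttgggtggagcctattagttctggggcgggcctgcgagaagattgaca
Pfkfb3, chr2:11553930-11554179: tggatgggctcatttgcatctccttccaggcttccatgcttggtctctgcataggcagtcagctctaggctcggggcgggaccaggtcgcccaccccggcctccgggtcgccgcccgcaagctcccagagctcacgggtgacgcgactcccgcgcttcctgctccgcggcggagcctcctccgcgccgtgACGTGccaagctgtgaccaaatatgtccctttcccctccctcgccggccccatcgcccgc
Pfkfb3, chr2:11502091-11502340: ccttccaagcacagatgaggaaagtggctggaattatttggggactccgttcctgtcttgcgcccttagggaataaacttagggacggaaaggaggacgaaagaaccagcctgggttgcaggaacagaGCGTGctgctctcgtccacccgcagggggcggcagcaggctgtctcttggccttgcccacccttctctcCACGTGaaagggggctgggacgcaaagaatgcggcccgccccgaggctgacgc
The Pfkfb4 window held 1 match, and the Pfkfb3 windows at its 2 starts held 1 and 3. Of 50 windows at 33 members, 78.0% held a match, beside 38.6% of all 32851 windows in the RefSeq table. Member windows also had more G and C, with a median of 59.2% beside 52.4%. A match stood in 7 of 8 windows of members called higher and in 6 of 7 of those called lower. Of the windows of tested members not called, 25 of 34 (73.5%) held a match. Some genes have several windows, and 2 Aldoa windows overlap and share their match, so windows are not independent. The member entries absent from the table were Slc2a3 and Bnip3l.

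Among the lower steps of glycolysis, Eno2 was the member that fell. Eno2, the enolase gene known from neurons (chromosome 6, 124760053 to 124769673, minus strand), stood at 21.4, 25.3 and 24.0 CPM in WT replicates 1 to 3 and at 6.35, 3.34 and 3.79 CPM in KO replicates 1 to 3. It fell 5.17-fold (log2 fold change -2.37, SE 0.26, edgeR adjusted p = 1.432e-06), on 609 WT and 130 KO counts. Its window before the start held no match to the letters above. Eno3, the muscle enolase gene and no member, stood at 95.7 ± 12.3 and 105.9 ± 11.9 CPM in KO and WT cells, with an edgeR adjusted p of 0.436.

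Aldoa, the main aldolase gene (chromosome 7, 126795234 to 126800751, minus strand), rose from 56.6 ± 5.69 to 76.5 ± 3.86 CPM (log2 fold change 0.44, SE 0.12, edgeR adjusted p = 0.014). Its libraries stood at 73.8, 81.0 and 74.8 CPM in KO and 62.65, 51.4 and 55.7 CPM in WT cells, without overlap. The call was lost without KO replicate 2 (0.0535), WT replicate 2 (0.1001) and WT replicate 3 (0.052), and with the red pulp covariate (0.315, log2 fold change 0.46). Aldoc was low, at 2.99 ± 1.34 CPM in KO and 1.81 ± 0.173 CPM in WT cells. The table also held a row under Pkm2, an older symbol of the pyruvate kinase gene Pkm, which was chosen after its values were seen. It stood at 80.7 ± 2.36 CPM in KO and 60.5 ± 7.36 CPM in WT cells (log2 fold change 0.42, SE 0.12, edgeR adjusted p = 0.0184), and was not called without KO replicate 1 (0.0561), WT replicate 2 (0.0976) or WT replicate 3 (0.0943), or with the red pulp covariate (0.283).

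Several enzymes of this stretch that are abundant in most cells had few counts here. Gapdh stood at 7.56 ± 1.38 CPM in KO and 9.62 ± 2.59 CPM in WT libraries, Pgk1 at 4.76 ± 0.618 and 3.44 ± 0.0239 CPM, and Pgam1 at 1.22 ± 0.303 and 1.83 ± 0.408 CPM. Of the distinct 50-base stretches in the longest coding transcript of each gene, 82.5% for Gapdh, 68.0% for Pgk1 and 41.5% for Pgam1 also occur in GENCODE transcripts of other genes (222, 5 and 4 of them). The corresponding share was 72.2% for Eno1 and 34.4% for Pkm. How reads with several matches were counted is not given in the sources used here. The levels of these genes are therefore uncertain, and the part of shared stretches in them was not tested. Tpi1 (7.5% shared) was at 11.3 ± 3.80 CPM in KO and 9.82 ± 2.16 CPM in WT cells. None of these 4 genes was called, and the 95% intervals of their log2 fold changes ran from -0.94 to 0.26 for Gapdh and from -0.33 to 1.25 for Pgk1. Among called members, the shared part was 13.5% for Aldoa and 25.1% for Pfkfb2.

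At the end of the pathway both lactate dehydrogenase genes rose. Ldha, whose product favours lactate formation (chromosome 7, 46841475 to 46855627, plus strand), was the highest member per kb of exon in both groups, at 52.5 CPM per kb in WT and 65.3 in KO cells. Its libraries stood at 185.5, 160.4 and 175 CPM in WT replicates 1 to 3 and at 225.5, 200.3 and 222 CPM in KO replicates 1 to 3. The groups did not overlap, and the change was 1.245-fold (log2 fold change 0.32, SE 0.09, edgeR adjusted p = 0.0203). The call was lost without KO replicate 1 (0.0745), WT replicate 2 (0.137) and WT replicate 3 (0.0542), and with the red pulp covariate (0.224, log2 fold change 0.40). Ldhb, whose product favours pyruvate formation (chromosome 6, 142490249 to 142507957, minus strand), had 1, 8 and 2 counts in WT replicates 1 to 3 and 38, 21 and 22 counts in KO replicates 1 to 3. Ldhb rose from 0.38 ± 0.309 to 2.85 ± 0.568 CPM (log2 fold change 2.75, SE 0.65, edgeR adjusted p = 0.00482). It passed the low-count filter through its KO libraries alone, the group where it is high, and a filter of 5 CPM in 3 libraries left it untested. The depth-scaled ratio of its counts was 7.12, with a 95% exact counting interval of 3.775 to 14.8 that covers counting error only. With the red pulp covariate its adjusted p was 0.105 (log2 fold change 2.94). Ldhb remained a small share of the pair per kb, at 2.27 to 3.17% in KO and 0.157 to 0.947% in WT libraries. Of the 50-base stretches, 16.6% for Ldha and 27.0% for Ldhb occur in transcripts of other genes.

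The window before one RefSeq start of Ldha, on the plus strand, is shown because it held 5 matches when each palindrome counts as 2. By that count it had the most together with Bnip3 among member windows. With each palindrome counted only once, windows of Bnip3, Slc2a6, Pdk3 and Egln2 held more sites.
Ldha, chr7:46845554-46845803: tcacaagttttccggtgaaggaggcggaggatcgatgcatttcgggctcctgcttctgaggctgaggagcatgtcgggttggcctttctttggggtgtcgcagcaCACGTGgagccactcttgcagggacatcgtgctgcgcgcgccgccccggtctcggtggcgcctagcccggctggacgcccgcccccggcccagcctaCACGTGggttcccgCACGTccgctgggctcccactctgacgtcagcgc
In it, 2 CACGTG palindromes and 1 further ACGTG on the opposite strand are in capitals, and the first and last matches lie 145 and 34 bases before the start.

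The kinases that shut the pyruvate dehydrogenase complex, and so keep pyruvate out of mitochondria, were not called by edgeR, DESeq2 or limma-voom, and 1 of 3 (Pdk3) had an unadjusted edgeR p under 0.05. Pdk1, a well-known hypoxia target, stood at 32.0 ± 1.12 CPM in KO and 28.95 ± 3.33 CPM in WT cells (log2 fold change 0.14, 95% interval -0.18 to 0.47). Pdk3, the leading kinase per kb in all 6 libraries, stood at 53.8, 47.7 and 34.5 CPM in KO replicates 1 to 3 and at 34.02, 33.6 and 38.4 CPM in WT. KO replicate 3 was the one that overlapped WT, and Pdk3 was called without it (log2 fold change 0.52, edgeR adjusted p = 0.0136) and with the red pulp covariate (0.96, 0.0262). Pdk2 was at 10.9 ± 3.37 CPM in KO and 13.5 ± 1.15 CPM in WT cells and was not called. Of the monocarboxylate transporters that carry lactate, Slc16a3, the exporter MCT4, stood at 10.6 to 11.4 CPM in KO and 5.74 to 9.40 CPM in WT libraries. It was not called (log2 fold change 0.66, SE 0.27, edgeR adjusted p = 0.0975), but was without WT replicate 1 (0.0445). Slc16a1 was at 1.48 ± 0.232 CPM in KO and 1.45 ± 0.785 CPM in WT cells and was not called.

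**Figure D3:**
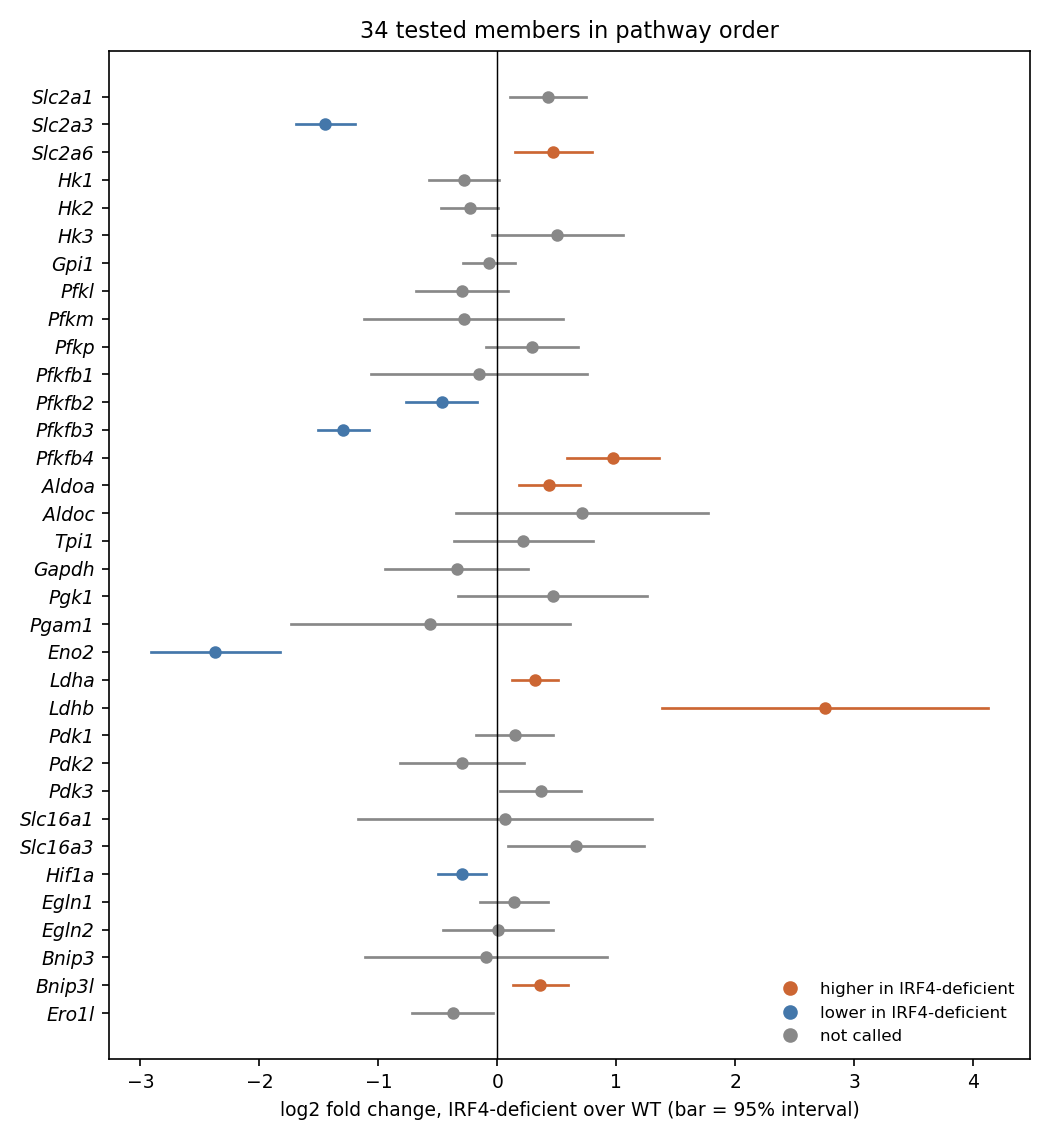
Log2 fold change of IRF4-deficient (KO) over WT for the 34 tested members in pathway order, with 95% intervals, coloured by call. The called genes lie on both sides of 0, and the wide intervals belong to genes with few counts such as Ldhb, Pgam1 and Slc16a1.

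In the oxygen-sensing system, the regulated subunit gene fell slightly. Hif1a (chromosome 12, 73901375 to 73947530, plus strand) stood at 139, 152 and 142 CPM in WT replicates 1 to 3 and at 114, 116 and 122 CPM in KO replicates 1 to 3. The groups did not overlap, and the level fell 1.23-fold (log2 fold change -0.30, SE 0.10, edgeR adjusted p = 0.0318). The call was lost without KO replicates 1 and 2 (0.0992 and 0.0903) and WT replicates 2 and 3 (0.161 and 0.0689), and with the red pulp covariate (0.213, log2 fold change -0.42). HIF1A protein is set mainly by degradation, which RNA counts do not show. Of the prolyl hydroxylase genes, Egln1, which encodes the main oxygen sensor PHD2, stood at 53.9 ± 2.50 and 49.05 ± 7.603 CPM in KO and WT cells, and Egln2 at 20.8 ± 2.19 and 20.8 ± 7.08 CPM. Neither was called, and the 95% intervals of their log2 fold changes were -0.15 to 0.43 and -0.46 to 0.46. Egln3, itself induced by HIF, had 14, 6 and 13 counts in KO and 0, 6 and 3 counts in WT replicates 1 to 3, so that their ratio after scaling for depth was 3.545 (95% exact interval 1.66 to 8.42, counting error only).

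Among the classical hypoxia targets, Bnip3l (NIX), a mitophagy receptor gene (chromosome 14, 66985239 to 67008877, minus strand), rose from 74.1 ± 6.37 to 95.2 ± 3.09 CPM (log2 fold change 0.36, SE 0.11, edgeR adjusted p = 0.0263). Its KO libraries stood at 97.4, 91.7 and 96.65 CPM and its WT libraries at 74.5, 80.2 and 67.5 CPM. The call was lost without KO replicate 1 (0.0685), WT replicate 1 (0.0647) and WT replicate 3 (0.13), and with the red pulp covariate (0.541, log2 fold change 0.28). Bnip3l is also abundant in red blood cell precursors. Of the 16 erythroid markers, 9 had a row, and their sum of 296 to 334 CPM in KO and 243 to 299.9 CPM in WT libraries overlapped. Most of it was Tfrc (229 ± 10.3 and 200.6 ± 33.8 CPM in KO and WT cells). Of the 7 tested, Car2 was called higher, from 16.45 ± 2.54 CPM in WT to 49.05 ± 9.45 CPM in KO cells, and 0 were called lower. The part of erythroid signal in the Bnip3l result was not tested. The paralog Bnip3 was low at 2.17 ± 0.436 CPM in KO and 2.32 ± 0.47 CPM in WT cells and was not called. Of the 50-base stretches, 62.4% for Bnip3 and 23.4% for Bnip3l occur in transcripts of other genes. Ero1l, which forms disulfides in the endoplasmic reticulum, stood at 29.5 ± 4.36 CPM in KO and 38.25 ± 5.61 CPM in WT cells and was not called (log2 fold change -0.38, SE 0.16, edgeR adjusted p = 0.118).

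**Figure D4:**
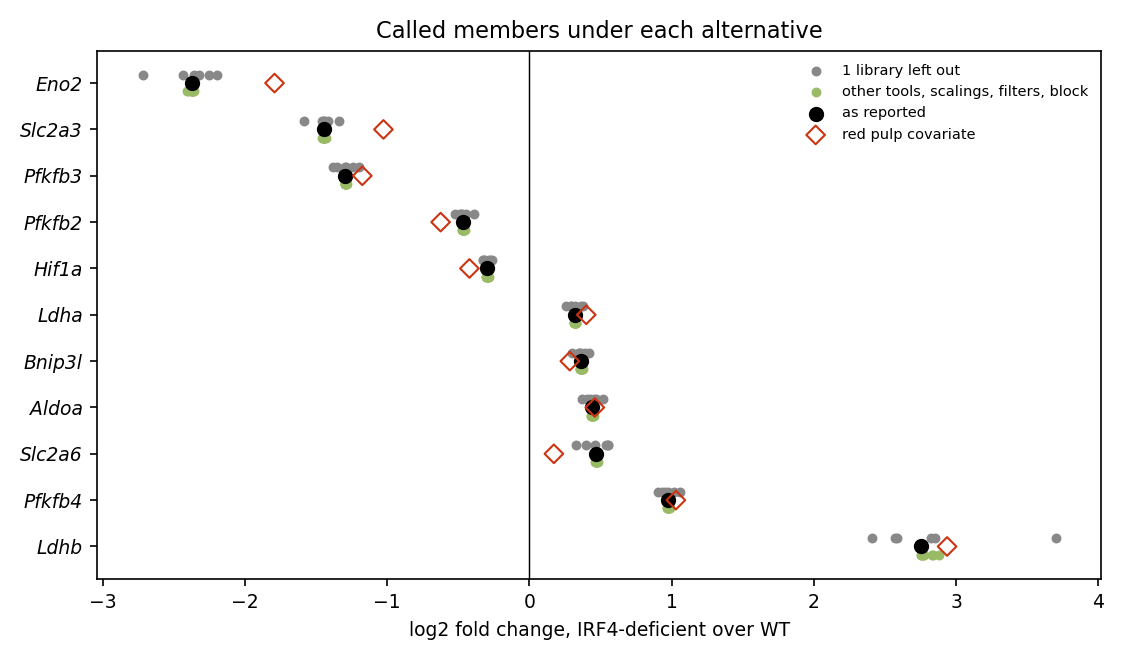
Log2 fold change (IRF4-deficient (KO) over WT) of the 11 called members as reported (black), with each library left out (grey), under other tools, scalings and filters and a replicate block (green) and with the red pulp marker sum as a covariate (open diamonds). No value crosses 0, and the diamonds of Eno2, Slc2a3, Pfkfb3, Slc2a6 and Bnip3l lie nearer to 0 than the reported values.

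The order of the members by level, per kb of the union of exons, differed between the groups at the top. This order depends on the length used. On the longest coding transcript (2884 bases for Gpi1), Gpi1 would be among the leading members in both groups. Per kb of exon, Ldha (52.5), Pfkfb3 (46.1), Hif1a (24.4), Slc2a3 (22.7) and Aldoa (19.4 CPM per kb) led in WT cells. In KO cells Ldha (65.3), Aldoa (26.3), Bnip3l (24.7), Hif1a (19.9) and Pfkfb3 (18.8 CPM per kb) led, and Slc2a3 stood at 8.305 CPM per kb.

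Other genes of the same metabolism were taken from lists chosen for these pathways. Of 31 further hypoxia targets tested, 4 were called higher and 1 lower. Vegfa, the endothelial growth factor gene and a classical HIF target, rose from 7.10 ± 0.391 CPM in WT to 51.85 ± 4.91 CPM in KO cells (log2 fold change 2.86, SE 0.17), and Bhlhe40, a transcriptional repressor gene, rose from 248 ± 31.6 to 833.5 ± 76.2 CPM. Anxa1 rose (log2 fold change 0.63, SE 0.13) and Narf fell (log2 fold change -1.01, SE 0.13). Kdm3a (78.2 and 88.9 CPM in KO and WT cells) and P4hb (172 and 160.2 CPM) were not called. Of the 6 tested partners and regulators of HIF, among them Arnt at 112.5 ± 5.68 and 111 ± 4.11 CPM, 0 were called by edgeR, DESeq2 or limma-voom, and 0 had an unadjusted edgeR p under 0.05. The share called among the further hypoxia targets was 16.1%, beside 20.4% of all tested genes.

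Of 26 further glycolysis and sugar-handling genes 4 were called higher and 1 lower (19.2%, beside 20.4% of all tested genes), a share near the background. Slc16a10, an aromatic amino acid transporter gene of the monocarboxylate family, rose from 19.97 ± 0.502 to 41.6 ± 13.7 CPM, with a log2 fold change of 0.075 (adjusted p = 0.943) with the red pulp covariate. Pgm2l1 rose (log2 fold change 0.79, SE 0.19) and Pgam2, the muscle phosphoglycerate mutase gene, fell from 12.3 ± 1.99 to 5.46 ± 1.65 CPM, and neither was called with that covariate (0.569 and 0.819). Of 21 tricarboxylic acid cycle genes 2 were called higher and 1 lower (14.3%). Mdh2, the mitochondrial malate dehydrogenase gene, fell from 887 ± 85.9 to 509 ± 36.9 CPM (log2 fold change -0.80, SE 0.09), and Idh3b rose with a log2 fold change of 0.50 (SE 0.12). With the red pulp covariate Idh3b was not called (0.528, log2 fold change 0.29). Cs and Sdha, at 276 and 215 CPM in KO and 288 and 225 CPM in WT cells, were not called.

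Of 11 genes of pyruvate entry into mitochondria 1 was called higher and 0 lower (9.09%, beside 20.4% of all tested genes). Of 11 pentose phosphate genes 2 were called higher and 0 lower (18.2%), and of 15 glycogen genes 1 and 1 (13.3%). Of 26 upstream regulators 2 were called higher and 3 lower (19.2%). Stk11, which encodes the AMPK-activating kinase LKB1, rose from 52.2 ± 4.33 to 82.85 ± 3.26 CPM, and Txnip, an inhibitor of glucose uptake, from 304 ± 18.6 to 392 ± 18.1 CPM. With the red pulp covariate neither was called (edgeR adjusted p = 0.115 for Stk11 and 0.0656 for Txnip), with log2 fold changes of 0.61 and 0.50. Sirt1, a deacetylase gene, fell from 60.9 ± 3.35 to 39.7 ± 7.71 CPM. Myc (56.15 and 64.9 CPM in KO and WT cells) and Mtor (108 and 107 CPM) were not called. In all, 23 of 146 such genes were called (15.8%, beside 20.4% of all tested genes), and 12 of them, those described above as having risen or fallen, were also called without each library in turn. The other 11 (Ndrg1, Slc16a7, Khk, Pdha1, Idh2, H6pd, Tkt, Phka1, Phka2, Rptor and Prkaa1) each lost the call without at least 1 library. Without WT replicate 2, and likewise without WT replicate 3, 10 were called higher in place of 16, and without WT replicate 3, 4 were called lower in place of 7.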

How the data were processed

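RNA-seq counts of splenic cDC2s were analysed for 3 WT and 3 IRF4-deficient libraries. The authors deposited raw counts per gene symbol for 14535 genes, of which 7 were 0 throughout. Per the submitters' processing notes, STAR, HTSeq and DESeq2 were used with build mm10. The annotation, strand setting and read length were not given in the sources used here. WT columns were matched through the source names, and no column was left unused. Members and lists were chosen with earlier results of these data known.

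Genes passing filterByExpr (11934) were scaled by TMM and tested with edgeR 4.0.16 (R 4.3.3, robust quasi-likelihood, prior count 0.125, common biological coefficient of variation 0.156), Benjamini-Hochberg adjusted. SE values derive from the F statistic. Locations and exon lengths (union of exons) come from GENCODE M21 on GRCm38. Promoters come from RefSeq (GRCm38.p6). Named are all members, Irf4, markers, and called or abundant (mean of at least 50 CPM) genes of the pathway lists; Pkm2 falls outside this rule.

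Intervals of count ratios are exact binomial. Replicate pairs differed beyond counting noise (chi-square per degree of freedom 7.66 to 15.9). On data simulated from these libraries, 37.3%, 63.6% and 92.2% of genes changed 1.5-fold, 2-fold and 4-fold were called (11801 genes tested), and 9 of 135 calls were false. Only 67, 66 and 64 genes were changed at these sizes, far fewer than the 2429 called in the data. The shares therefore need not hold for the fit reported here. Alternatives were DESeq2 1.42.0, limma-voom (limma 3.58.1), other scalings and filters, no robust shrinkage, a replicate block, removal of Rn45s and Malat1, the red pulp covariate, and leaving out each library.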

Additional observations from a re-analysis of the deposited data

How the results depend on the processing

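Of the 11 called members, 3 (Slc2a3, Pfkfb3 and Eno2) were called in each of the 16 alternatives and left-out libraries. Leaving out each library gave 3 to 6 members called higher, 3 to 5 called lower, a median member log2 fold change of -0.0943 to 0.26, 1779 to 2431 calls over all genes, and 10 to 18 higher and 4 to 9 lower calls in the pathway lists. With the red pulp covariate, 1 member was called higher (Pdk3) and 3 lower, and 806 genes were called over all. Pathway genes called with it were 5 higher (Vegfa, Ndrg1, Bhlhe40, Anxa1 and Idh2) and 5 lower, among them Narf, Mdh2 and Sirt1. This covariate differed between the groups without overlap, so its part and that of the genotype cannot be told apart in that fit. Some uncalled members changed sign. With the covariate the log2 fold changes were 0.17 for Bnip3, 0.0365 for Gapdh, 0.34 for Pdk2 and 0.36 for Pfkfb1. Egln2 was at -0.0001 with upper-quartile factors and -0.0005 with a filter of 5 CPM in 3 libraries. Over all left-out libraries the log2 fold change of Bnip3 ran from -0.25 to 0.055, of Egln2 from -0.18 to 0.30, of Gpi1 from -0.12 to 0.0085, of Pfkfb1 from -0.47 to 0.0058, of Pfkm from -0.55 to 0.13, of Slc16a1 from -0.21 to 0.57 and of Tpi1 from -0.10 to 0.39. The cause of these changes was not tested. Same-numbered libraries, by the numbers in the sample titles, correlated at -0.00479, 0.0512 and -0.0106 in their deviations from the group means. Not every library correlated best with its own number. With 3 libraries per group these values cannot show whether libraries of the 2 groups share an animal or a day. With the replicate block, 2267 genes, 6 members higher and 4 lower were called, Hif1a was not called (adjusted p = 0.054), and the median member log2 fold change was 0.07. Few counts left wide intervals: that of Slc16a1 included a 2-fold change in both directions, and those of Pgam1 and Bnip3 a 2-fold decrease.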
